A study of Mus musculus with 24 samples.

Results

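The proteasome genes of mouse liver macrophages were described here as the array measured them. Members were the transcript clusters whose gene symbol, in the annotation of the array platform, begins with Psm, followed by a letter from a to g and a number. The rule found 50 genes among 19505 distinct symbols, with 1 cluster each. It took in 13 genes of the core particle (7 of the alpha ring, 4 non-catalytic beta subunits and 2 constitutive catalytic beta subunits), 17 of the cap (6 base ATPases, 3 other base subunits and 8 lid subunits), the 3 immunoproteasome subunits Psmb8, Psmb9 and Psmb10, 4 activators, 1 inhibitor, 3 cap chaperones, 4 core chaperones, 1 testis and 1 thymus subunit, and 3 further genes. Of the subunits and factors listed, Psmb5, which encodes the constitutive chymotrypsin-like subunit, had no named cluster and was not analysed here. The 3 further genes carry such a symbol without being listed subunits: Psmc3ip is a meiotic recombination factor, Psme3ip1 is named for an interaction with PSME3, and Psme2b is a near-identical copy of Psme2, so the probes of the latter pair may share targets and both values are uncertain on that account.

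The proteasome breaks down proteins that carry ubiquitin. Its core particle is a barrel of stacked alpha and beta rings with the proteolytic sites inside, and the cap, or regulatory particle, binds ubiquitin, removes it, unfolds the substrate with a ring of ATPases and feeds it to the core. Under interferon-gamma, cells replace the catalytic subunits PSMB6, PSMB7 and PSMB5 by PSMB9, PSMB10 and PSMB8, and the resulting immunoproteasome, together with the activator PA28 (PSME1 and PSME2), shapes the peptides that MHC class I molecules present. Macrophages are antigen-presenting cells and carry both forms.

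The study asked how loss of the spleen affects the liver after resection. Liver cells selected for F4/80, the product of Adgre1 on the macrophage surface, gave RNA for 24 Clariom S arrays, which fall into 8 groups of 3. The groups were intact, SE (spleen removed, liver preserved), LR at 24 h, 3 days and 7 days after removal of 70% of the liver, and LR+SE at the same times, with splenectomy 7 days before the resection. The methods describe C57BL/6 male mice, age not given, and a density gradient before the F4/80 beads. The group labelled intact is described in the methods as sham-operated, and preparations pooled the cells of several mice without a statement that the 3 pools of a group were separate, so p-values refer to the spread among preparations alone, which may be technical. Values are log2 levels after robust multi-array averaging (RMA). A difference is given in log2 with the standard error of the fit, and rose or fell is used where limma's moderated test had a Benjamini-Hochberg adjusted p under 0.05 over all 22206 clusters of that comparison. Where groups are said not to overlap without a share of all clusters beside it, this only describes the arrays. In SE against intact 9.11% of all clusters were lower without overlap, and in LR+SE 3 days against SE 13.1% were higher. The number of arrays limits the precision, and in sorted bulk samples fewer cells of a type and less RNA per cell cannot be told apart.

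Markers of Kupffer cells were high throughout, with array means of the list of 7 genes from 15.31 to 18.10. Transcripts of other cells moved with the groups. The neutrophil list (7 genes) had array means of 5.66 to 6.94 in intact against 11.45 to 12.86 in LR 24 h, the monocyte list (6 genes) 5.70 to 6.39 against 10.00 to 10.54, and the hepatocyte list (7 genes) 7.34 to 9.38 in SE against 12.46 to 14.44 in LR+SE 3 days. Replicate 2 of LR+SE 3 days stood apart, with the lowest Kupffer mean (15.31) and the highest hepatocyte and monocyte means (14.44 and 12.95) of the 24 arrays. The mean of Uty, Kdm5d and Eif2s3y, which lie on the Y chromosome, had values of 2.60 to 3.08 on 5 arrays, all 3 of intact, replicate 1 of LR+SE 3 days and replicate 2 of LR 7 days, and of 6.75 to 8.78 on the other 19, although the methods describe male mice. Against the background level of 3.98, the dendritic cell list (6 genes) had Clec9a above it on all 24 arrays, Siglech on 19 and Xcr1 on 3, while Flt3, Zbtb46 and Cd209a were at or under it on every array. Of the T and NK cell list (8 genes), Cd8a was above it on 12 arrays, Nkg7 on 8, Cd3e on 4 and Cd3d, Ncr1 and Gzma on 1 each, and Cd3g and Klrb1c on none. Of the B cell list (4 genes), Cd79b was above it on 8 arrays, Cd79a on 3, and Ms4a1 and Pax5 on none. The sinusoidal endothelial list (6 genes) was above it on all 24 arrays, with gene means from 10.86 (Stab2) to 16.90 (Fcgr2b). Of the dividing cell list (7 genes), Mki67, Top2a, Birc5, Mcm6 and Pcna were above it on all 24, Plk1 on 23 and Cdk1 on 9. Of the erythroid list (3 genes), Alas2 was above it on all 24, and Klf1 and Ermap on none.

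The promoters of a few genes are shown because the genes called in one comparison were mostly interferon-induced ones and those called in another mostly constitutive core and cap genes. Interferon acts through the interferon-stimulated response element (ISRE, searched as GAAANNGAA) and the gamma-activated site (GAS, searched as TTCNNNGAA), while the antioxidant response element (ARE, searched as TGACNNNGC or TGAGNNNGC) is the site of NFE2L1, which drives the constitutive proteasome genes. The sequences are from RefSeq on build GRCm38.p6, read 5′ to 3′ on the strand of the gene, with motif matches on either strand in capitals. On chromosome 17 Psmb9 and Tap1, which encodes a subunit of the peptide transporter of class I presentation, start head to head with 225 bases between their starts, and Psmb8 follows Tap1. The stretch between the Psmb9 and Tap1 starts (chr17:34187331-34187555, minus strand) held neither interferon motif in these letters.
Psmb9 and Tap1: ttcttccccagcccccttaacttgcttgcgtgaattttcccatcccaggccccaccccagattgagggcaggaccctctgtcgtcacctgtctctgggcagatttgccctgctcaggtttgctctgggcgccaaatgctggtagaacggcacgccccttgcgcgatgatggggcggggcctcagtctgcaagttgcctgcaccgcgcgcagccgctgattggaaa
Psmb8 (chr17:34198075-34198224, plus strand) had a GAS match 97 bases before its start, in a stretch from 120 bases before to 30 after it.
Psmb8: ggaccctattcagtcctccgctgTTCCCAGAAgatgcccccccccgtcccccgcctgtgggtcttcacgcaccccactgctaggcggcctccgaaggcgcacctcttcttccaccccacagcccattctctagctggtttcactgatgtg
Psme1 (chr14:55578374-55578523, plus strand) had an ISRE match on the opposite strand that begins at base 11 of the transcript.
Psme1: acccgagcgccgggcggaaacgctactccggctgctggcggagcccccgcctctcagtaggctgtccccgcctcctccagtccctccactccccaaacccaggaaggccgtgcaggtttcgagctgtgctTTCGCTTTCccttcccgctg
Psmb6 (chr11:70525297-70525386, plus strand) and Psmb3 (chr11:97703374-97703463, plus strand), both constitutive core genes, had an ARE match 9 and 10 bases before the start, in a stretch from 60 bases before to 30 after it. For Psmb6 the start used here lies inside the gene as RefSeq places it (from 70525324), and so does the match.
Psmb6: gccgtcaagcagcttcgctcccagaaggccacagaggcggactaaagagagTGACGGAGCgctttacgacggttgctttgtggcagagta
Psmb3: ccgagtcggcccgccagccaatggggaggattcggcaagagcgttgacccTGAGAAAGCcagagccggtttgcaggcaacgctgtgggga
Of the 50 genes, 42 had a window of 250 bases before and 50 after the start. Among them 7 (16.7%) held an ISRE match, 3 (7.14%) a GAS match and 16 (38.1%) an ARE match, against 9.76%, 9.55% and 30.8% of all 27025 genes with a window. Of the genes that rose in LR+SE 3 days against SE, 12 had a window. Among those, 4 held an ISRE match, 5 an ARE match and 0 a GAS match. Psmb3, shown for its ARE match, also held an ISRE match 162 bases before its start. The printed stretches are examples and do not show that the motifs split between induced and constitutive genes. These matches are a description of letters, and no binding was measured.

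The catalytic subunits of the immunoproteasome were low 24 h after resection and higher at 3 days in animals with a spleen. Psmb9, the interferon-induced counterpart of Psmb6, read 7.99, 10.11 and 9.56 in intact, 6.41, 5.63 and 7.58 in LR 24 h, 8.87, 9.23 and 9.25 in LR 3 days and 10.10, 10.67 and 8.71 in LR 7 days. All 3 arrays of LR 24 h lay below every intact and every LR 3 days array. Psmb9 fell by 2.68 ± 0.60 in LR 24 h against intact (limma, adjusted p = 0.00744), a 6.42-fold difference, and rose by 2.58 ± 0.60 from 24 h to 3 days (adjusted p = 0.0143). At 3 days its difference from intact was -0.10 ± 0.60, and at 7 days 0.61 ± 0.60.
Psmb8, the counterpart of Psmb5, read 10.26, 10.13 and 9.70 in intact, 9.31, 7.49 and 8.89 in LR 24 h, and 10.72, 10.38 and 10.84 in LR 3 days. Psmb10, the counterpart of Psmb7, read 9.13, 9.01 and 8.72 in intact, 8.48, 6.72 and 7.50 in LR 24 h, and 9.56, 9.64 and 9.46 in LR 3 days. For both, the LR 24 h arrays were again the low ones and overlapped neither group, with replicate 2 the lowest. The share of all clusters separated in this way is not given here for these groups. In SE against intact 9.11% of all clusters were lower without overlap. The differences from intact were -1.47 ± 0.55 for Psmb8 and -1.39 ± 0.55 for Psmb10, which did not pass the test (limma, adjusted p = 0.124 and 0.153). From 24 h to 3 days Psmb8 rose by 2.08 ± 0.55 (adjusted p = 0.031) and Psmb10 by 1.98 ± 0.55 (adjusted p = 0.0405).

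The activator PA28, which opens the gate of the core without ATP, is built of PSME1 and PSME2. Psme1 read 15.38, 15.24 and 14.80 in intact, 14.49, 12.76 and 13.47 in LR 24 h, and 16.05, 15.82 and 15.78 in LR 3 days. The 3 groups did not overlap, with LR 3 days highest. Its difference in LR 24 h against intact was -1.57 ± 0.52 (limma, adjusted p = 0.0758), and from 24 h to 3 days it rose by 2.31 ± 0.52 (adjusted p = 0.0113).
Psme2 read 11.58, 11.45 and 11.28 in intact, 10.06, 9.74 and 10.47 in LR 24 h, and 10.77, 10.69 and 11.25 in LR 3 days. It fell by 1.35 ± 0.41 at 24 h (limma, adjusted p = 0.0455), while its difference from 24 h to 3 days, 0.81 ± 0.41, did not pass the test (adjusted p = 0.327). The LR 3 days arrays lay between the other groups without overlap. Psme2b, whose probes may also read Psme2, read 11.87, 11.86 and 11.16 in intact, 8.71, 7.63 and 8.38 in LR 24 h, and 10.86, 10.32 and 10.78 in LR 3 days. It fell by 3.39 ± 0.55 (limma, adjusted p = 4.51e-04), a 10.5-fold difference, and rose by 2.41 ± 0.55 to 3 days (adjusted p = 0.0115).
The other activators differ from PA28 in place and induction. Psme3 encodes the nuclear PA28 gamma and Psme4 encodes PA200, and neither passed the test in any comparison, with differences at LR 24 h against intact of 0.50 ± 0.34 and -0.12 ± 0.27.

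**Figure D1:**
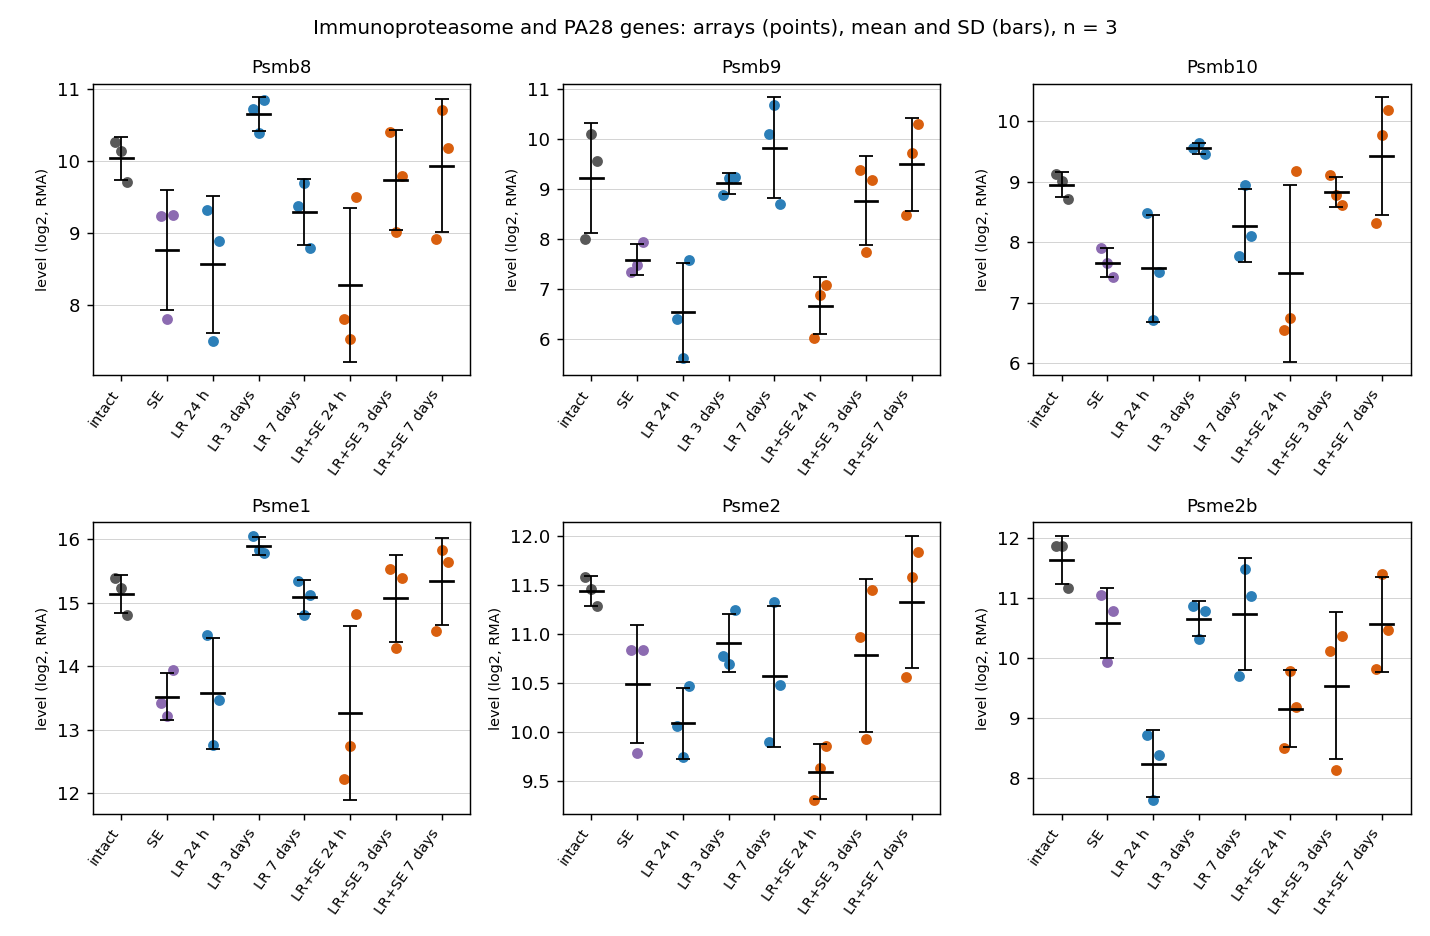
Log2 RMA level of 6 genes in the 8 groups, each in its own panel with its own axis. Points are arrays and bars the mean with its SD (n = 3). The LR 24 h arrays lie below intact and below LR 3 days in every panel, and of the 3 LR+SE groups the one at 24 h has the lowest mean in all 6. The share of all clusters separated in this way is not given here.

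In LR 24 h against intact, 5 of the 50 genes passed the test, 2 higher and 3 lower, where 7.59% of all clusters were called, 3.47% higher and 4.12% lower. The 3 that fell were Psmb9, Psme2 and Psme2b, and the 2 that rose were Psma6 and Psmc2, described with the core and the cap. From LR 24 h to LR 3 days 6 genes rose and none fell, where 5.18% of all clusters were called and 3.13% called higher. Those were the 3 immunoproteasome subunits, Psme1, Psme2b and Psmf1, and none of the 30 core and cap genes was among them (median difference -0.03). Since no intact array had Y-linked signal, the intact comparisons could be adjusted for it only through the 2 other such arrays: no member was called in LR 24 h against intact with that term in the fit (Psmb9 at -1.59, Psme2 at -0.64 and Psme2b at -2.40), and 6 were called from 24 h to 3 days, groups that hold no such array. Without replicate 2 of LR 24 h no member was called from 24 h to 3 days, and without LR 3 days replicates 1, 2 or 3 the counts were 3, 3 and 1.

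After splenectomy alone, without any resection, the immunoproteasome and PA28 genes had low values. In SE, Psmb9 read 7.35, 7.48 and 7.94, Psmb8 9.23, 7.80 and 9.24, and Psmb10 7.91, 7.65 and 7.42. Psme1 read 13.41, 13.22 and 13.94 and Psme2 10.83, 9.79 and 10.84. Each of the 5 genes was lower in SE than on every intact array, with differences from -0.95 ± 0.41 (Psme2) to -1.63 ± 0.60 (Psmb9), where 9.11% of all clusters were lower without overlap. None passed the test (limma, adjusted p from 0.167 to 0.331), and the intact arrays lacked Y-linked signal while the SE arrays had it. With the Y-linked term all 5 stayed below 0, from -0.24 to -1.48 with a median of -0.54, against -1.29 without it. The hepatocyte list was lower in SE as well, with array means of 10.40 to 12.28 in intact against the 7.34 to 9.38 of SE, and its part in the result was not tested.
In LR+SE 24 h Psmb9 read 6.03, 6.89 and 7.09. Its arrays lay below those of SE, and the difference of -0.92 ± 0.60 did not pass the test (limma, adjusted p = 0.6). Psme2 read 9.30, 9.63 and 9.85, a difference of -0.89 ± 0.41 from SE (adjusted p = 0.383) with overlap. Psme1 read 12.22, 12.74 and 14.82, Psmb8 7.80, 7.52 and 9.49 and Psmb10 6.54, 6.75 and 9.18, with replicate 3 well above the other two for each. At 3 days Psmb9 read 9.37, 7.75 and 9.18 and Psmb8 10.39, 9.01 and 9.79. Replicate 2, the array that stood apart, was the low one for both. At 7 days Psmb9 reached 8.48, 9.71 and 10.29, 1.91 ± 0.60 above SE (adjusted p = 0.12), and Psme1 14.56, 15.82 and 15.63, 1.81 ± 0.52 above SE (adjusted p = 0.0813). Neither LR+SE 3 days nor LR+SE 7 days gave a call for the 3 immunoproteasome subunits, Psme1 or Psme2 against SE.

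Genes of class I presentation and of the interferon pathway were read beside them. Of 10 class I genes, Tap1 fell by 1.93 ± 0.43 and Tapbp, which encodes tapasin, by 1.45 ± 0.37 in LR 24 h against intact (limma, adjusted p = 0.00651 and 0.0178), and both rose to 3 days by 2.41 ± 0.43 and 2.02 ± 0.37. The other 8, among them B2m and H2-K1, did not pass the test there. Of 7 named interferon pathway genes 5 fell at LR 24 h, where 4.12% of all clusters were called lower: Stat2 by 3.66 ± 0.62, Irf1 by 1.88 ± 0.38, Irf8 by 1.47 ± 0.25, Ifngr1 by 1.38 ± 0.38 and Irf9 by 1.33 ± 0.27. With the Y-linked term Stat2, Irf1 and Irf8 were called lower (-4.26, -2.94 and -1.81), and Tap1 (-2.34), Tapbp (-0.68), Irf9 (-1.14) and Ifngr1 (-0.23) were not. The only class I gene called with that term was Calr, and it was higher (3.53). Stat2, Irf8 and Irf9 rose again to 3 days, by 3.59 ± 0.62, 1.08 ± 0.25 and 1.13 ± 0.27. Tap1 also fell in LR+SE 24 h against SE, by 2.14 ± 0.43, as did Stat2 (2.86 ± 0.62) and Irf1 (1.72 ± 0.38). The neutrophil list was high in the same LR 24 h arrays, and its part in the result was not tested.

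The constitutive subunits Psmb6 and Psmb7 had means above intact in LR 24 h and LR 3 days. Psmb6, which carries the caspase-like site, read 8.87, 9.36 and 9.37 in intact, 10.52, 9.76 and 10.11 in LR 24 h, 10.36, 10.69 and 10.59 in LR 3 days and 10.31, 10.10 and 9.0 in LR 7 days. Every array of LR 24 h and LR 3 days lay above every intact array, and the LR 7 days arrays overlapped them. The share of all clusters separated like this is not given here. Psmb6 rose by 1.34 ± 0.35 in LR 3 days against intact (limma, adjusted p = 0.0433), while its difference at 24 h was 0.93 ± 0.35 (adjusted p = 0.122). The intact arrays lacked Y-linked signal and the LR 3 days arrays had it, and with that term in the fit the difference at 3 days was 1.49 and lost the call (adjusted p = 0.215). Psmb7, which carries the trypsin-like site, stood 0.51 ± 0.38 and 0.93 ± 0.38 above intact at the same times and did not pass the test.
In the splenectomized animals, the lowest Psmb6 and Psmb7 values were in SE and the highest in LR+SE 3 days. In SE, Psmb6 read 8.68, 8.66 and 8.85, in LR+SE 24 h 8.72, 8.92 and 9.92, in LR+SE 3 days 10.41, 10.90 and 10.23, and in LR+SE 7 days 9.17, 9.85 and 10.26. The 3 arrays of LR+SE 3 days were above those of SE and of LR+SE 24 h. Psmb6 rose by 1.78 ± 0.35 in LR+SE 3 days against SE (limma, adjusted p = 0.00298), a 3.44-fold difference, and Psmb7 by 1.39 ± 0.38 (adjusted p = 0.0272), from 10.24, 11.26 and 10.72 to 12.44, 11.78 and 12.17.

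Those 2 were among 16 genes that rose in LR+SE 3 days against SE, with none that fell, where 6.92% of all clusters were called and 5.12% called higher. They were 8 of 13 core genes, 7 of 17 cap genes and the inhibitor Psmf1, and none of the 3 immunoproteasome subunits. Those 3 were also above SE, by 0.97 ± 0.55 (Psmb8) to 1.18 ± 0.60 (Psmb9), without passing the test. Psme1 and Psme2 had differences of 1.55 ± 0.52 and 0.29 ± 0.41, so the calls do not show that these genes were spared. Of the 50 genes, 44 had a difference above 0 and the median was 1.11, against -0.04 over all 22206 clusters and 0.14 over the 11335 clusters with a mean above background. Counts moved with single arrays: 8 without SE replicate 1, 9 without SE replicate 3, 9, 9 and 10 without LR+SE 3 days replicates 1, 2 and 3, and 17 without SE replicate 2. With quantile normalization the count was 10, with only these 6 arrays in the fit 9, and with the Y-linked term 13.

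All 4 non-catalytic beta subunits, structural members of the inner rings, rose. Psmb1 read 9.57, 10.36 and 10.28 in SE and 12.03, 12.38 and 11.95 in LR+SE 3 days, a rise of 2.05 ± 0.31 (limma, adjusted p = 3.65e-04). It was also the 1 member that rose in LR+SE 7 days against SE, by 1.48 ± 0.31 (adjusted p = 0.02), where 1.52% of all clusters were called, and its 7 days arrays read 11.10, 11.71 and 11.82. That call was lost without SE replicate 1 or 3 or without LR+SE 7 days replicate 2 or 3. Psmb2 read 9.33, 10.62 and 10.97 in SE against 12.53, 11.72 and 11.98, a rise of 1.77 ± 0.48 (adjusted p = 0.0272). The lowest LR+SE 3 days array was thus above the highest SE array in both. Psmb3 and Psmb4 rose by 1.33 ± 0.32 and 1.26 ± 0.29. From LR+SE 24 h to LR+SE 3 days 2 members rose, Psmb1 by 1.38 ± 0.31 and Psmb4 by 1.19 ± 0.29 (adjusted p = 0.0288 and 0.047), where 1.31% of all clusters were called and 0.797% called higher. Without replicate 3 of LR+SE 24 h, the highest of its group for both genes, 6 members were called, and without replicates 1 or 2 of either group none.

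Of the alpha ring, whose subunits form the gate of the core, Psma2 and Psma7 rose in LR+SE 3 days against SE, by 1.63 ± 0.45 and 1.28 ± 0.39. The others had differences from 0.25 ± 0.43 (Psma3) to 1.83 ± 0.69 (Psma1), the latter the largest of the ring but spread in SE over 7.51, 9.23 and 9.51. Psma6 was higher after resection with and without the spleen. It read 10.90, 11.28 and 11.61 in intact, 13.55, 12.51 and 12.91 in LR 24 h, 12.23, 12.19 and 12.36 in LR 3 days, and 13.50, 12.22 and 12.81 in LR 7 days. Every resected array was above every intact array, and the share of all clusters for which this held is not given here. Psma6 rose by 1.73 ± 0.36 at 24 h (limma, adjusted p = 0.0043) and by 1.58 ± 0.36 at 7 days (adjusted p = 0.0378), where it was the 1 member called and 1% of all clusters were called, and its difference at 3 days was 1.00 ± 0.36. The call at 7 days was lost without any 1 array but LR 7 days replicate 2, and with the Y-linked term both calls were lost (1.25 at 24 h and 1.26 at 7 days, adjusted p = 0.314 and 0.295). In the splenectomized animals Psma6 read 10.17, 10.64 and 11.05 in SE, 11.53, 11.46 and 12.49 in LR+SE 24 h, 11.68, 11.62 and 11.79 in LR+SE 3 days, and 11.43, 11.63 and 12.61 in LR+SE 7 days. Every array of the resected groups was above every SE array there too, with differences of 1.20 ± 0.36, 1.07 ± 0.36 and 1.27 ± 0.36 that did not pass the test (limma, adjusted p = 0.119, 0.0819 and 0.0787). The smallest difference of the ring at LR 24 h was that of Psma2, -0.02 ± 0.45.

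The base ATPases unfold the substrate. In LR+SE 3 days against SE all 6 had differences above 0, from 0.91 to 2.19, and 3 passed the test. Psmc4 read 6.62, 8.02 and 8.13 in SE and 9.99, 9.96 and 9.39 in LR+SE 3 days, a rise of 2.19 ± 0.47 (limma, adjusted p = 0.00599) and the largest of the 50 genes. Psmc2 read 8.71, 9.44 and 8.90 against 10.62, 11.08 and 10.48, a rise of 1.71 ± 0.30 (adjusted p = 0.00108), and Psmc3 rose by 0.91 ± 0.27. The groups did not overlap for any of the 3.
Psmc2 was also higher 24 h after resection in animals with a spleen, at 10.79, 10.50 and 10.79 against 9.50, 9.91 and 9.56 in intact, a rise of 1.04 ± 0.30 (limma, adjusted p = 0.0338). The call was lost with the Y-linked term (1.23, adjusted p = 0.213). The 3 LR 24 h arrays lay above those of intact, while Psmc6 had the smallest difference of the ATPases there, 0.03 ± 0.52.

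Among the other cap genes, the lid subunit Psmd13 was called in 3 comparisons. It read 9.76, 9.41 and 9.77 in intact, 10.58, 10.49 and 10.64 in LR 24 h, 10.71, 10.84 and 10.86 in LR 3 days, 9.33, 9.64 and 9.48 in SE, 10.63, 11.12 and 10.90 in LR+SE 24 h and 10.79, 11.51 and 10.85 in LR+SE 3 days. The arrays at 24 h and 3 days lay above the unresected ones in either setting, and the share of all clusters that did so is not given here. Psmd13 rose by 1.16 ± 0.29 in LR 3 days against intact (limma, adjusted p = 0.0359), by 1.40 ± 0.29 in LR+SE 24 h against SE (adjusted p = 0.0162) and by 1.56 ± 0.29 in LR+SE 3 days against SE (adjusted p = 0.00193). Psmd13 and Psmb6 were the 2 members called in LR 3 days against intact, where 2.36% of all clusters were called, and Psmd13 the 1 member in LR+SE 24 h against SE, where 1.33% were called. With the Y-linked term Psmd13 lost the call in LR 3 days against intact (1.56, adjusted p = 0.0762) and kept that in LR+SE 24 h against SE. Leaving out any 1 of the 6 arrays of LR 3 days and intact left no member called, as did leaving out SE replicate 1 or 3 or LR+SE 24 h replicate 2 or 3 in LR+SE 24 h against SE.
Of the lid, Psmd6 and Psmd8 rose too in LR+SE 3 days against SE, by 1.55 ± 0.41 and 1.26 ± 0.31, and Psmd12 had the smallest difference, 0.27 ± 0.34. The ubiquitin receptor Psmd4 rose by 1.31 ± 0.39, with groups that overlapped, while Psmd1, the large scaffold of the base, had a difference of -0.25 ± 0.50. Psmd14, the deubiquitinase of the lid, had a difference of 1.29 ± 0.43 and did not pass the test.

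**Figure D2:**
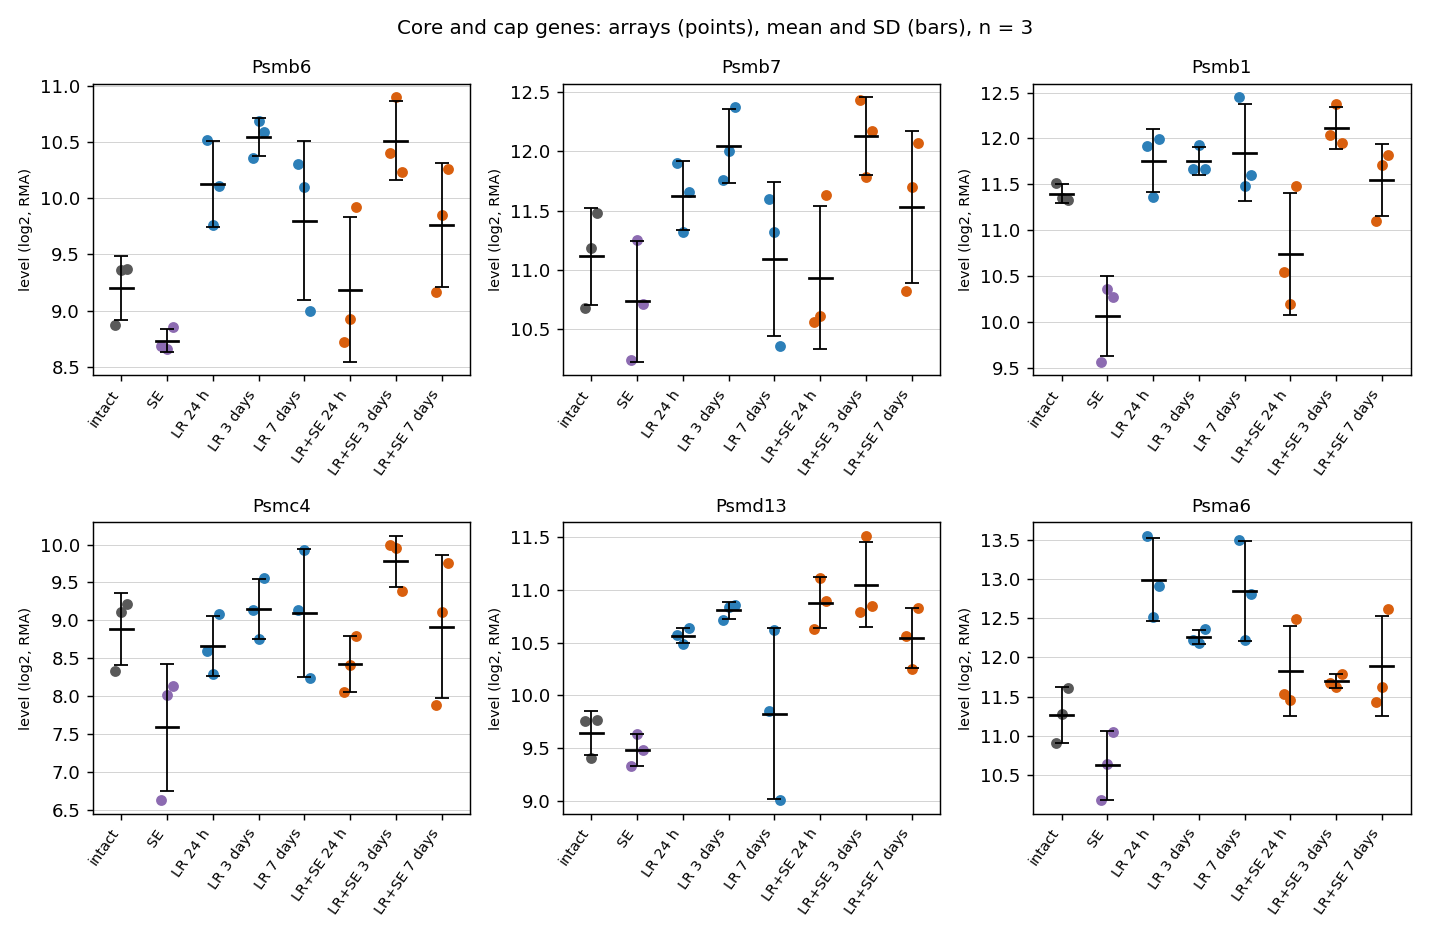
Log2 RMA level of 6 core and cap genes in the 8 groups, each panel with its own axis. Points are arrays and bars the mean with its SD (n = 3). The 3 arrays of LR+SE 3 days lie above the 3 of SE in all 6 panels, and Psma6 is higher in LR 24 h and LR 7 days than in intact.

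**Figure D3:**
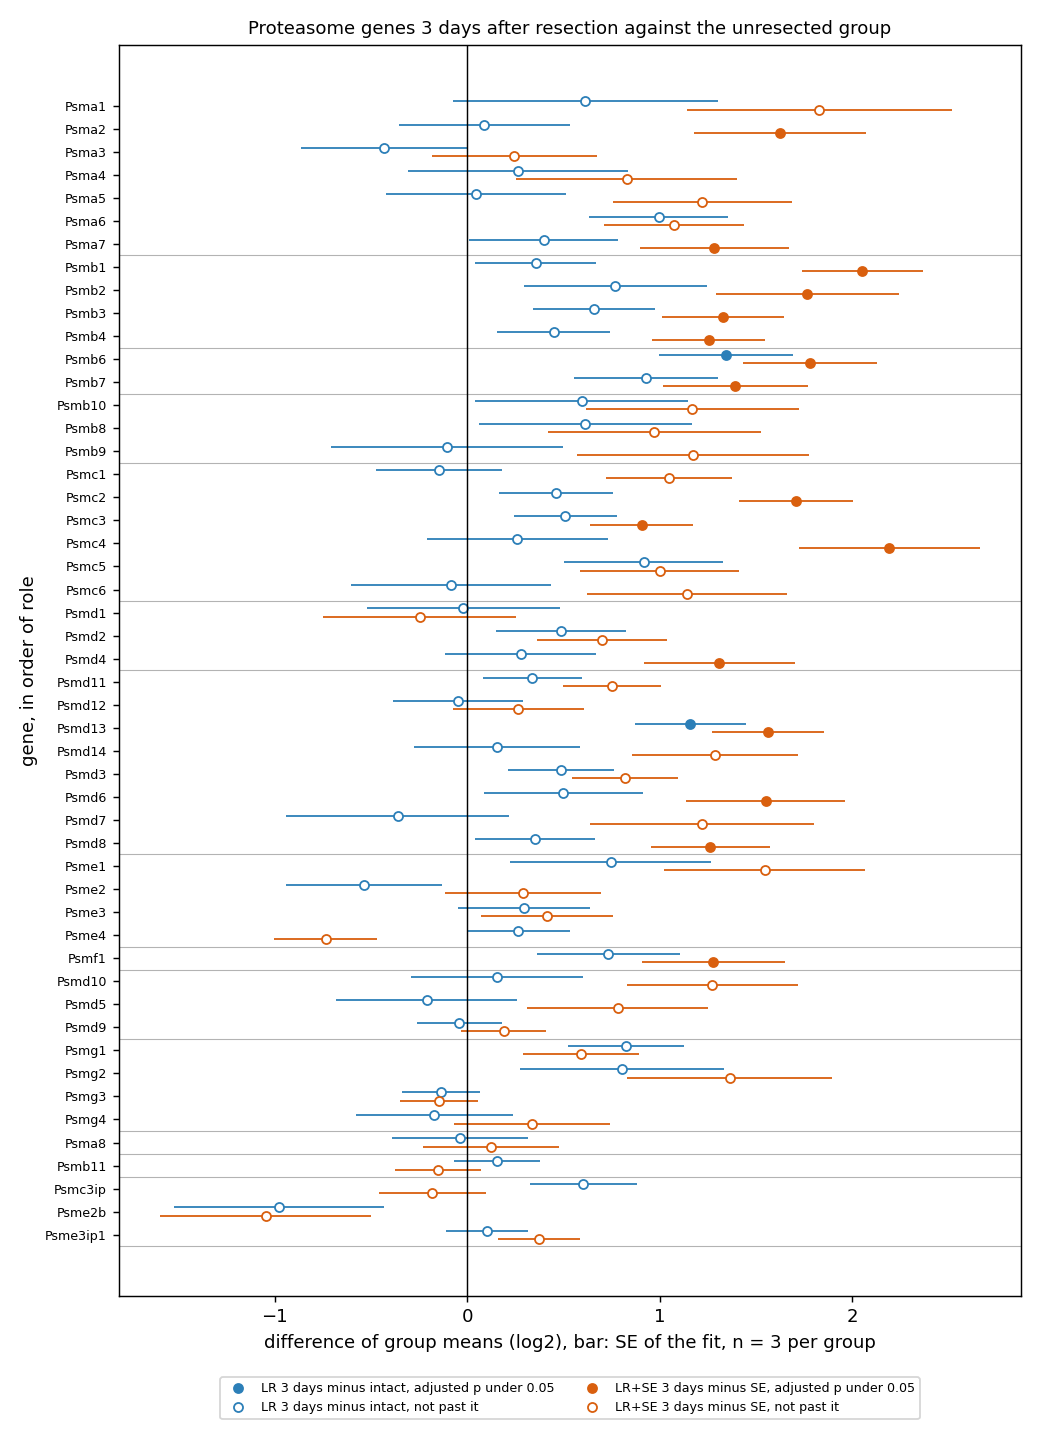
Difference of group means in log2 for the 50 genes, ordered by role, in LR 3 days against intact (blue) and LR+SE 3 days against SE (orange). Bars are standard errors of the fit (3 arrays per group) and filled points passed the test: 2 genes in blue and 16 in orange.

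Psmf1, the inhibitor PI31, read 9.46, 8.67 and 8.72 in intact, 8.54, 8.15 and 8.02 in LR 24 h and 9.86, 9.19 and 10.01 in LR 3 days. It rose by 1.45 ± 0.37 from 24 h to 3 days (limma, adjusted p = 0.0258), without overlap, and in the splenectomized animals by 1.28 ± 0.37 from SE (7.40, 8.02 and 8.25) to LR+SE 3 days (9.58, 8.90 and 9.03). None of the cap chaperones (Psmd5, Psmd9, Psmd10) or core chaperones (Psmg1 to Psmg4), which assemble the 2 particles, passed the test in any comparison. Their largest differences in LR+SE 3 days against SE were 1.27 ± 0.44 for Psmd10 and 1.37 ± 0.53 for Psmg2, and the smallest 0.19 ± 0.22 for Psmd9 and -0.15 ± 0.20 for Psmg3. Psma8 (testis), Psmb11 (thymus), Psmg3 and Psmc3ip had means under the background level of 3.98, and Psmb11 and Psmg3 lay under it on every array. The other 46 genes had means above it. Psme3ip1 ranged from 8.50 to 9.86 over the 24 arrays and was not called.

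The difference at 3 days in splenectomized animals had a low starting level beside it. Psmd9, Psmd1 and Psme4 were among 7 genes above intact in SE, and the other 43 were below it, with a median of -0.60 against 0.01 over all clusters. With the Y-linked term the median was -0.32 with 15 genes above 0, and without intact replicate 2 it was -0.40. No member passed the test in SE against intact (limma), where 0.554% of all clusters were called, although 18 had an unadjusted p under 0.05 (12.9% of all clusters did). A p that misses the threshold does not show equal levels. Of the 30 core and cap genes 24 had their lowest group mean in SE and 15 their highest in LR+SE 3 days. The mean over those 30 genes was 9.35, 10.07 and 9.95 on the intact arrays, 8.73, 9.46 and 9.32 in SE, 10.03, 10.11 and 10.40 in LR 3 days and 10.36, 10.44 and 10.33 in LR+SE 3 days. Only replicate 1 of intact overlapped SE, and the LR+SE 3 days arrays were in or just above the range of LR 3 days.
In LR+SE 3 days against SE, 22 of the 30 were higher without overlap (13.1% of all clusters) and 1, Psmd1, was lower without overlap (11.6% of all clusters). Over the 5 immunoproteasome and PA28 genes the array means were 9.75, 9.19 and 9.87 in SE, 8.38, 8.71 and 10.09 in LR+SE 24 h and 11.07, 9.95 and 10.88 in LR+SE 3 days. They were 10.87, 11.19 and 10.81 in intact, 9.75, 8.47 and 9.58 in LR 24 h and 11.19, 11.15 and 11.31 in LR 3 days. The low group was thus LR 24 h or LR+SE 24 h for each of these 5 genes, and SE for most core and cap genes. The hepatocyte, monocyte and neutrophil lists were higher in LR+SE 3 days too, by medians of 5.29, 3.51 and 2.49 over SE. Of their genes 6 of 7, 4 of 6 and 3 of 7 were called, where 6.92% of all clusters were called and 5.12% called higher. The part of these lists in the result was not tested.

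**Figure D4:**
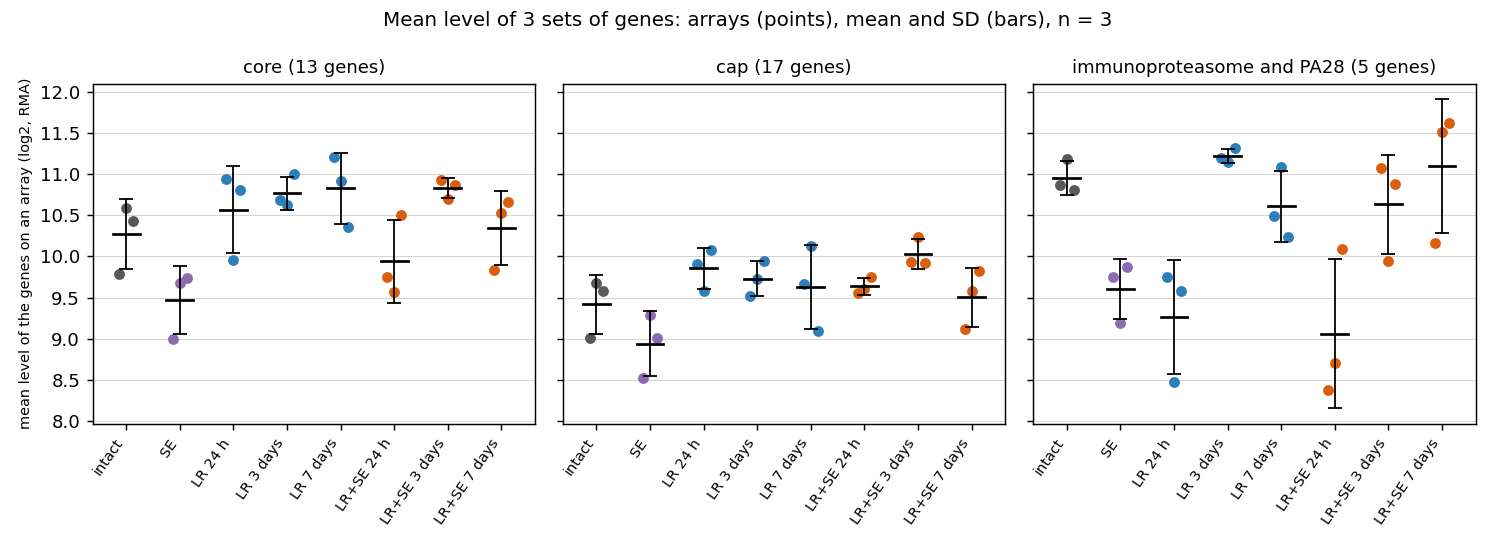
Mean log2 RMA level of the 13 core genes, the 17 cap genes and the 5 immunoproteasome and PA28 genes on each array, by group. Points are arrays and bars the mean with its SD (n = 3). The mean of the core genes is lowest in SE (9.47). It is about as high in LR 7 days (10.83) and LR 3 days (10.77) as in LR+SE 3 days (10.83). The mean of the cap genes is lowest in SE (8.94) and highest in LR+SE 3 days (10.03). The immunoproteasome and PA28 mean is lowest at 24 h in LR+SE (9.06) and LR (9.27).

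Direct comparisons of LR+SE with LR at the same time gave 1 call. At 7 days Psmd8, a lid subunit, read 11.40, 11.48 and 11.34 in LR and 9.79, 10.42 and 10.21 in LR+SE. It fell by 1.27 ± 0.31 (limma, adjusted p = 0.0433), without overlap, where 1.64% of all clusters were called. It lost the call without replicate 1 of LR 7 days or without any 1 array of LR+SE 7 days, and 6 members were called without replicate 2 of LR 7 days, the array without Y-linked signal. At 24 h no member was called, where 3.26% of all clusters were, and 7 had an unadjusted p under 0.05 with limma (14.3% of all clusters did), 6 of them lower in LR+SE, among them Psma6 (-1.17 ± 0.36) and Psmc2 (-1.07 ± 0.30). Without replicate 3 of LR+SE 24 h 5 members were called. At 3 days none was called, where 0.126% of all clusters were, and none had an unadjusted p under 0.05, against 6.94% of all clusters. The 95% interval of the difference at 3 days was -0.75 to 0.70 for Psmb6, so a difference of that size is not excluded by these arrays.
The interaction asks whether resection changed a gene by another amount after splenectomy than with the spleen. No member passed the test (limma) at 24 h, 3 days or 7 days, where 0.684%, 0.513% and 0.122% of all clusters were called. Unadjusted p under 0.05 was found for 4, 6 and 10 members and for 13%, 9.33% and 11.1% of all clusters. At 3 days 29 of the 30 core and cap genes had an interaction above 0, with a median of 0.85, up to 1.93 ± 0.66 for Psmc4. Over all clusters 49.3% were above 0 (median -0.01), and of those with a mean above background 56.5% (median 0.10). As no member passed, the 16 calls after splenectomy against 2 with the spleen were not shown to differ gene by gene. With the Y-linked term 22 of the 30 were above 0 with a median of 0.42, and over all 50 genes the median went from 0.56 to 0.27 with that term and to 0.36 with quantile normalization. At 7 days all 5 immunoproteasome and PA28 genes had interactions above 0, from 1.30 for Psmb9 to 2.44 for Psmb10, and from 0.57 to 1.97 with the Y-linked term. Over all clusters 48.3% were above 0 at 7 days, and of those with a mean above background 55.4%. At 3 days the same 5 genes were all above 0 as well (median 0.80), but with the Y-linked term only 1 of 5 was (median -0.175). The comparisons against intact share its 3 arrays, as those against SE share theirs.
From 3 to 7 days no member was called in LR or in LR+SE (limma), where 1.57% and 1.36% of all clusters were, and 11 and 4 had an unadjusted p under 0.05 (13.1% and 8.88% of all clusters did). Without replicate 2 of LR 7 days 3 members were called in LR.

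**Figure D5:**
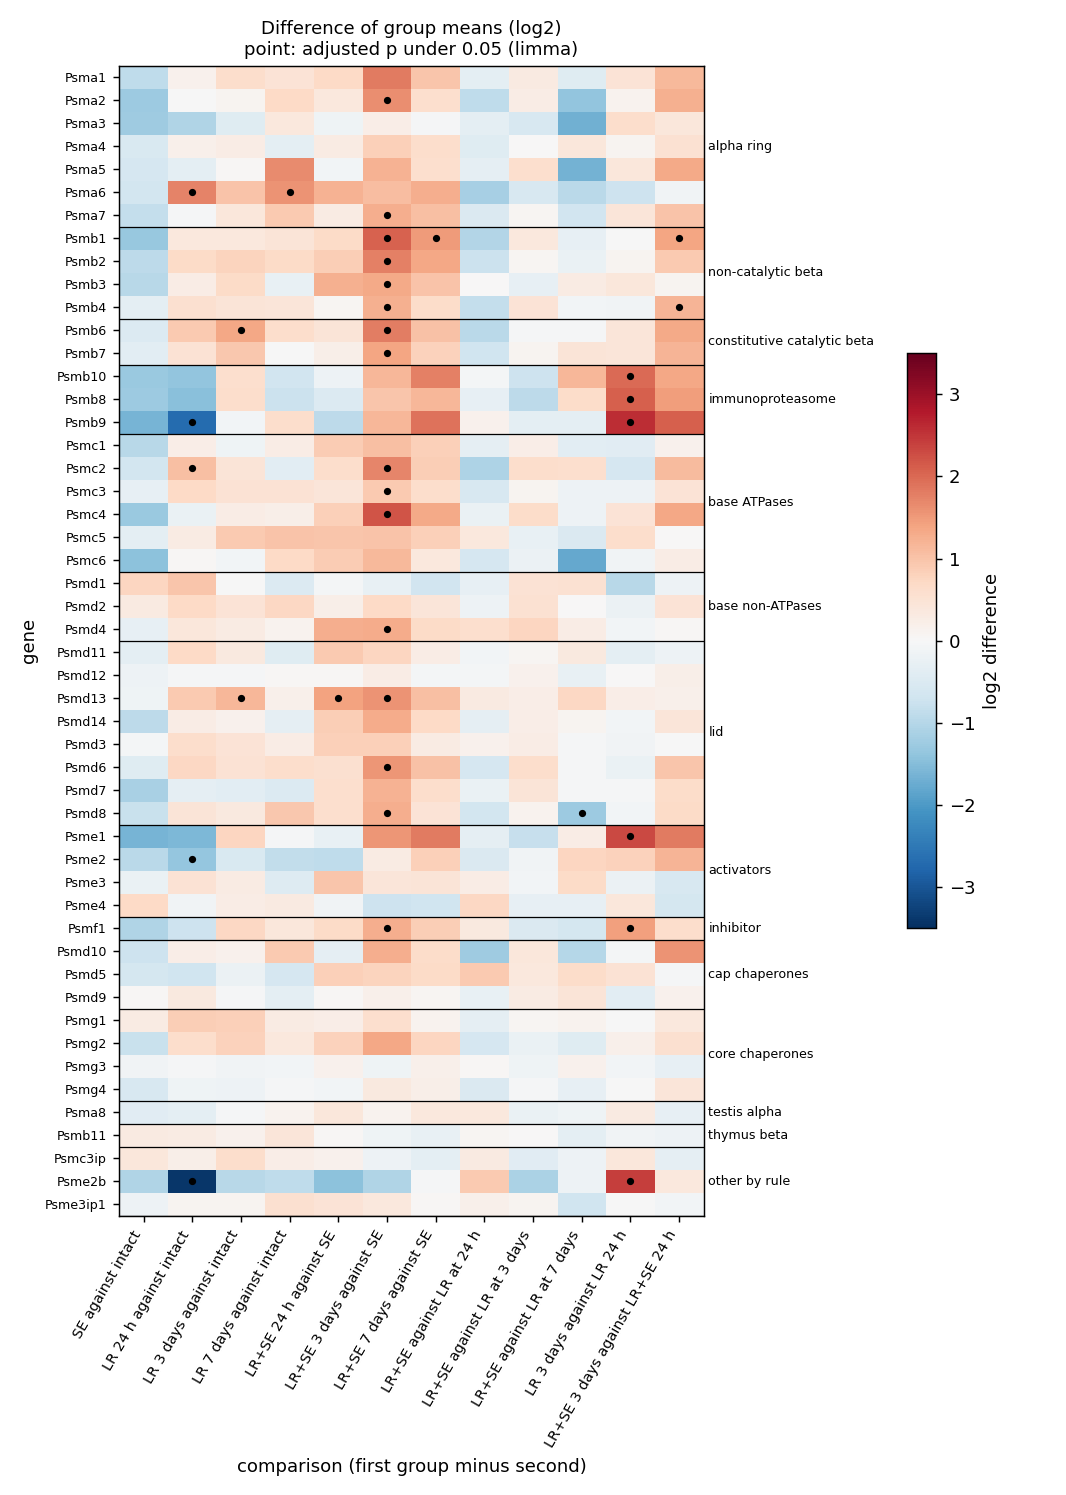
Difference of group means in log2 for the 50 genes (rows, grouped by role) in 12 comparisons (columns, first group minus second). Red is higher and blue lower, and a point marks an adjusted p under 0.05. The column of LR+SE 3 days against SE holds 15 called core and cap genes, and that of LR 3 days against LR 24 h the called immunoproteasome subunits and Psme1.

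Genes that work with the proteasome were read from lists in the same way. Of 14 named partner genes, Pomp, the maturation factor that helps assemble the core, rose by 1.48 ± 0.36 in LR+SE 3 days against SE (limma, adjusted p = 0.0137), and it was the 1 partner of the 14 called there, where 6.92% of all clusters were called. In LR+SE against LR at 7 days, where 1.64% of all clusters were called, the cap-associated thioredoxin Txnl1 fell by 1.70 ± 0.27 and Zfand5, which stimulates the proteasome, by 1.20 ± 0.27. None of the 5 named regulators (Nfe2l1, Nfe2l2, Ngly1, Stat3 and Foxo3) was called in LR+SE 3 days against SE, with a median of -0.16, and none of the 2 named genes of ubiquitin supply. Irf1, which drives Psmb9 in response to interferon, fell by 2.23 ± 0.38 in LR+SE 3 days against SE, as did Irf8 by 1.02 ± 0.25. In LR+SE against LR at 24 h, where 3.26% of all clusters were called, the class I heavy chain genes H2-K1 and H2-D1 fell by 1.63 ± 0.39 and 1.55 ± 0.33 (adjusted p = 0.0223 and 0.00941).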

How the data were processed

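RNA of F4/80+ liver cells was measured on 24 arrays, and the deposited table holds 1 log2 value per array and transcript cluster, which the authors made with the Transcriptome Analysis Console by RMA (versions not given in the sources used here). Of 28846 entries, 6640 controls were left out and 22206 clusters tested, of which 19572 carried 1 gene symbol and 2634 none. All 50 members had 1 cluster each, so none had to be chosen among several. Depth does not apply to arrays, and their number limits the precision. RNA extraction is given differently in the labels and the methods.

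Linear models with 1 mean per group over all 24 arrays were fitted in R 4.3.3 using limma 3.58.1 (16 residual and 4.23 prior degrees of freedom), with Benjamini-Hochberg adjustment over all clusters of each of 17 comparisons. Groups were called non-overlapping where the lowest array of one was higher than the highest of the other. As background level served the 95th percentile of the values of 1080 odorant receptor clusters. Differences are given ± their standard error. Exact tests of 3 against 3 arrays cannot go below p = 0.1. Alternatives were the replicate number or Y-linked signal as a block, a background filter, median centring, quantile normalization and a trended robust prior. Further ones were only the groups compared, Student's t-test, and leaving out each array. The methods name that t-test for pairwise comparisons and give no test for the arrays.

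Members and lists were chosen with earlier results of these data known. Named with values were the immunoproteasome subunits, their constitutive counterparts, the activators, up to 4 called members each way per comparison, examples of the largest and smallest change of each other class, and up to 4 called genes of each partner list. Partner lists had 14 of 17 genes named for proteasome partners, 5 of 6 for regulators, 2 of 7 for ubiquitin supply, 10 of 10 for class I presentation and 7 of 9 for interferon, and marker lists covered 10 cell classes. Promoter windows came from RefSeq (GRCm38.p6) for 42 members. Plots used python 3.11.15 and matplotlib 3.10.9.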

Additional observations from a re-analysis of the deposited data

How the results depend on the processing

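Counts of members called are given here for the settings that moved them by more than 1.5 times, and no call of a named gene reversed. With the Y-linked block, the counts were 0 in LR 24 h, LR 3 days and LR 7 days against intact, 2 in LR+SE against LR at 7 days and 1 in LR 7 days against LR 3 days. With the background filter they were 1 in SE against intact, 2 in LR+SE 24 h against SE, and 1 and 2 in LR+SE against LR at 24 h and 7 days. Median centring gave 0 in LR 3 days against intact, 2 in LR+SE 24 h against SE, 0 in LR+SE against LR at 7 days and 1 in LR+SE 3 days against LR+SE 24 h. Quantile normalization gave 8 in LR 24 h against intact, 10 in LR+SE 3 days against SE, and 5 and 3 in LR+SE against LR at 24 h and 7 days. The trended robust prior gave 3, 0 and 0 in LR 24 h, 3 days and 7 days against intact, 0 in LR+SE against LR at 7 days and 0 in LR+SE 3 days against LR+SE 24 h. With only the groups compared, the counts were 0 in LR 7 days against intact, 9 and 0 in LR+SE 3 days and 7 days against SE, 0 in LR+SE against LR at 7 days and 0 in LR+SE 3 days against LR+SE 24 h.

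Student's t-test, which the methods name for pairwise comparisons but not for the arrays, called 0 members in any of these comparisons after adjustment. Without adjustment it called 7 in SE against intact, 13, 11 and 3 in LR 24 h, 3 days and 7 days against intact, 8, 23 and 13 in LR+SE 24 h, 3 days and 7 days against SE, 2, 6 and 4 in LR+SE against LR at 24 h, 3 days and 7 days, 11 and 8 in LR 3 days against 24 h and 7 days against 3 days, and 11 and 3 in the same steps of LR+SE.

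Leaving out 1 array at a time gave 0 to 0 in SE against intact, 2 to 4, 0 to 0 and 0 to 2 in LR 24 h, 3 days and 7 days against intact, and 0 to 2, 8 to 17 and 0 to 2 in LR+SE 24 h, 3 days and 7 days against SE. It gave 0 to 5, 0 to 0 and 0 to 6 in LR+SE against LR at the 3 times, 0 to 6 and 0 to 3 in LR 3 days against 24 h and 7 days against 3 days, and 0 to 6 and 0 to 0 in the same steps of LR+SE.

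Arrays with the same replicate number did not deviate together as a whole (median correlation -0.01 over 84 pairs, from -0.55 to 0.45, across 2000 clusters). This gave no sign that the numbers pair the samples across all groups. A median over all pairs cannot decide whether some groups were paired. With the replicate number as a block, the counts were 1 in LR 3 days against intact and 0 in LR+SE against LR at 7 days, and elsewhere within 1.5 times of the values above, 5 in LR 24 h against intact and 15 in LR+SE 3 days against SE. Over the 35 named calls and 9 settings other than leaving out an array, 221 values kept the call and 94 lost it with the same direction. Of the 221, 33 came from the t-test without adjustment, where an unadjusted p under 0.05 counted as a call. The adjusted t-test kept 0 of the 35. Leaving out 1 array at a time kept the call in 100 and lost it in 110. No scan dates, raw scans or probe-level signals were used, so probe effects and scan batches were not examined.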
